A study of Mus musculus with 6 samples.

Results

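Of 24421 symbols in the gene table, 4 are described here: the cardiac myosin heavy chains Myh6, Myh7 and Myh7b, and Mir208b, the hairpin of the microRNA miR-208b that lies in an intron of Myh7. They were chosen by symbol, and all 4 passed the filter on low values that left 13010 genes for testing. The table holds RNA sequencing of heart lysates from C57BL6/J mice aged 4 weeks, with 2 libraries in each of 3 groups named Input, Cnot3 RIP and control IgG RIP. In RIP, RNA immunoprecipitation, an antibody pulls a protein out of the lysate and the RNA that comes with it is sequenced. Cnot3 RIP used an antibody against Cnot3, a subunit of the CCR4-NOT complex that shortens poly(A) tails. Control IgG RIP (called control RIP from here on) used an antibody with no stated target, and Input is RNA of the lysate itself. All 6 libraries come from whole heart of the same strain and age, and no genotype or drug separates them. The labels do not say whether the 2 libraries of a group came from different animals, so p-values measure only the spread between these libraries. The symbols were picked with the difference of Cnot3 RIP from control RIP already known, and for these 4 rows that contrast is given below as values with no p and no count of calls.

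A class II myosin heavy chain is the motor of the thick filament, and in the adult mouse ventricle the fast alpha chain (Myh6) replaces the slow beta chain (Myh7) of the fetal heart. Each of the 3 genes carries a microRNA in an intron: Mir208a in Myh6, Mir208b in Myh7 and Mir499 in Myh7b. These microRNAs are known for acting on repressors of the slow myosin genes, among them Sox6. The rows Mir208a, Mir208b and Mir499 hold reads of RNA over the hairpin, and say nothing about the mature microRNA.

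In the GRCm38 (mm10) assembly with GENCODE M21 genes, Myh6 lies at chr14:54941921-54966927 and Myh7 at chr14:54970684-54994626, both on the minus strand and 3756 bases apart. Myh7b lies at chr2:155611212-155634307 on the plus strand. Mir208b (chr14:54975700-54975776) sits in intron 31 of Myh7, which has 41 exons, and Mir208a (chr14:54949060-54949142) in intron 29 of the 39-exon Myh6. Mir499 (chr2:155622880-155622958) sits in intron 19 of Myh7b, which has 42 exons. Mhrt, a long noncoding RNA, runs antisense to Myh7, and 39.9% of its exon bases lie within Myh7 exons. The mature sequences are shown because the pair from the myosin introns shares a seed, the bases 2 to 8 that direct target choice, in capitals here. They were copied from RefSeq (GRCm38.p6).

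miR-208a-3p: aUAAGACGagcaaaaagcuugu
miR-208b-3p: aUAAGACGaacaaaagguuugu
miR-499-5p: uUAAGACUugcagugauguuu
miR-208a-5p: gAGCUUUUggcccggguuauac
miR-208b-5p: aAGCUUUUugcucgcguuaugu

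The 3p arms of miR-208a and miR-208b share the seed UAAGACG and the 5p arms share AGCUUUU, while the seed of miR-499-5p, UAAGACU, differs from the first in its last base. The whole hairpins, which give the rows their names, are printed with the 3p mature sequence in capitals.

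Mir208b hairpin: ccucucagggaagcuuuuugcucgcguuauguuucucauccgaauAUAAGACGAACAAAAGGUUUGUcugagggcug
Mir208a hairpin: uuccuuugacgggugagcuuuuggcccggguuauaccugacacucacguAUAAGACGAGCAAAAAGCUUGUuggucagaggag

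**Figure D1:**
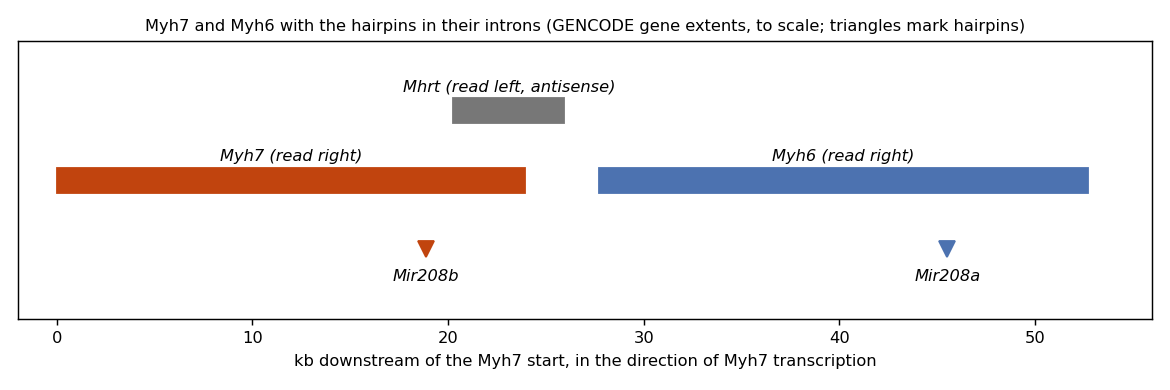
Extents of Myh7, Myh6 and the antisense Mhrt, in kb from the start of Myh7 in its direction of transcription, with triangles at the hairpins Mir208b and Mir208a. Mir208b lies inside Myh7, and Mhrt covers the end of Myh7 and part of the 3756 bases between both genes.

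Myh6 and Myh7 are close copies. Their coding sequences are 91.8% identical, while Myh7b is 73.6% identical to Myh6 and 73.8% to Myh7. Of all 50-base stretches of the Myh7 transcript, 22.2% occur unchanged in the Myh6 transcript, against 11.2% of 100-base stretches, and none of the Myh7b stretches of 36 bases or more occurs in Myh7. The longest run that both share is 245 bases of coding sequence, at transcript positions 4482 to 4726 in Myh6 and 4636 to 4880 in Myh7, and is shown because reads inside it cannot be assigned to 1 of the genes.

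Shared run: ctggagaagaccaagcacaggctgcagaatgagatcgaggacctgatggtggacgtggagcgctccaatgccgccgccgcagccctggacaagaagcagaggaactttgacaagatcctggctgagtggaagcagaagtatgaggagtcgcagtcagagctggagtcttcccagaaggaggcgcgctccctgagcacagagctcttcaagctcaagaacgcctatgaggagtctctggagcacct

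The read counter, its handling of such reads, its strand setting and the read length were not stated in any source used here, so reads of Myh6 and Myh7, and of Myh7 and Mhrt, may be split between rows.

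Totals were 15713318 to 33479580 reads per library. The ribosomal RNA row Rn45s took 78.3% and 79.2% of reads in Input, 60.2% and 59.4% in control RIP, then 53.1% and 51.1% in Cnot3 RIP, and was left in the totals. Levels below are scaled CPM, reads scaled to a common library total (CPM) with TMM factors, and the ratios between rows of 1 library do not depend on that scaling. Markers listed as ventricular summed to 41805 to 117033 scaled CPM, atrial markers to 12.5 to 45.1 and skeletal muscle markers to 3.33 to 8.40. Heart muscle markers were thus present in every library. In the first list Ttn alone averaged 26023.7 in Input and 73586.5 in control RIP, and Myl2 had 551.5 to 1324.0 by group mean. The sums therefore do not tell ventricle from atrium. Over the markers of these 3 lists and those of conduction cells, smooth muscle, endothelium, fibroblasts and leukocytes, 50 genes were tested. Between Cnot3 RIP and control RIP limma called 0 of them (1 before adjustment, 0 by edgeR, 1 by DESeq2), beside 1.81% of all genes. Limma called 7 in Cnot3 RIP against Input (13 before adjustment, 7 by edgeR, 11 by DESeq2) and 1 in control RIP against Input (13, 1 and 5), beside 8.32% and 4.07% of all genes. In Cnot3 RIP against Input the atrial markers Nppa (log2 −1.42, limma adjusted p = 0.0150) and Stard10 (−1.39, 0.0479), the leukocyte marker Lyz2 (−0.96, 0.0464) and the light chains Myl2, Myl3 and Myl1 were lower, and the conduction marker Tbx3 (1.15, 0.0268) was higher. In control RIP against Input the 1 was Nppa (−1.24, 0.0312). The calls of Nppa, Stard10, Lyz2 and Tbx3 in Cnot3 RIP were lost without either Input library and without Cnot3 RIP replicate 2 (limma adjusted p = 0.0672 to 0.305), and that of Nppa in control RIP without either Input or either control RIP library (0.109 to 0.232). Stard10 and Lyz2 also lost theirs without either control RIP library (0.0587 to 0.0598), with no filter, with only the 2 groups fitted and with a replicate block (0.0553 to 0.100). Under library-size scaling Nppa, Stard10 and Lyz2 were not called (0.242 to 0.777), and Lyz2 turned to 0.10. The part of these cell type markers in the results was not tested. The comparisons with Input set RNA that came with an antibody against RNA of the lysate. Recovery in the pull-down, the number of cells of a type and the RNA per cell cannot be told apart in them. A list of 6 nuclear noncoding RNAs, all of which passed the filter, had a median log2 difference of −1.62 between Cnot3 RIP and control RIP and of 2.24 between control RIP and Input, against −0.00 and 0.01 over all genes tested. In Cnot3 RIP against control RIP limma called 0 of the 6 (5 before adjustment, 0 by edgeR, 3 by DESeq2), beside 1.81% of all genes. In control RIP against Input 3 of the 6 were called higher, beside 2.58% of all genes. The 3 were Airn, Kcnq1ot1 and Xist, with log2 differences of 3.49, 3.41 and 2.91. All lost their calls without control RIP replicate 1 (limma adjusted p = 0.109, 0.163 and 0.216) and without Input replicate 2 (0.0503, 0.101 and 0.239). Kcnq1ot1 and Xist also did without control RIP replicate 2 (0.0619 and 0.141), and Xist with no filter (0.0651) and in edgeR's quasi-likelihood test (adjusted p = 0.0583). The summed level of the list was 7698 to 9746 scaled CPM in control RIP, 1937 to 5295 in Cnot3 RIP and 4798 to 6767 in Input. The list and the share of Rn45s thus differed between the groups compared below, and their part in the results was not tested.

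Myh6, the main ventricular chain of the adult mouse, was the most abundant member. It held 407925 and 242179 reads in control RIP, 435968 and 516741 in Cnot3 RIP, with 88962 and 215324 in Input. Its level was 23525 and 10972 scaled CPM in control RIP, 15528 and 15490 in Cnot3 RIP, with 8216 and 10397 in Input. Both Cnot3 RIP libraries lay between the control RIP libraries and above both Input libraries. Myh6 ranked 3 to 5 by reads in the 6 libraries. Per kilobase of transcript, Myh6 stood at 1522 ± 252 (SD, n = 2) scaled CPM in Input, Myh7 at 19.6 ± 2.62 and Myh7b at 3.85 ± 0.20, in that order in every library. The log2 difference of Myh6 was −0.05 (SE 0.51) between Cnot3 RIP and control RIP. It was 0.75 (SE 0.51, limma adjusted p = 0.388) between Cnot3 RIP and Input, and 0.80 (SE 0.51, limma adjusted p = 0.365) between control RIP and Input, neither past the threshold of 0.05. Scaled by library size alone, Myh6 passed it in both comparisons with Input, with log2 differences of 1.83 and 1.56, where all genes had medians of 1.02 and 0.70. Under that scaling its difference between Cnot3 RIP and control RIP turned to 0.27, where the median of all genes was 0.30.

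Myh7, the slow chain, was highest in control RIP. It had 11553 and 9003 reads in control RIP, 5945 and 4855 in Cnot3 RIP, with 1449 and 2293 in Input. Its level was 666 and 408 scaled CPM in control RIP, 212 and 146 in Cnot3 RIP, with 134 and 111 in Input. No Cnot3 RIP library reached a control RIP library, and none fell below an Input library. The log2 difference between Cnot3 RIP and control RIP was −1.57 (SE 0.31), which is 0.337 times the control RIP level. Between control RIP and Input it was 2.096 (SE 0.31, limma adjusted p = 0.0128), and between Cnot3 RIP and Input 0.53 (SE 0.31, limma adjusted p = 0.305). The comparisons with Input share control RIP or Cnot3 RIP libraries with the one the choice used, so their p-values are no independent support. In control RIP against Input, 3 of the 4 rows were called higher and none lower, while limma called 2.58% of the table higher and 1.49% lower. For Cnot3 RIP against Input, limma, edgeR and DESeq2 each called 0 of the 4 rows, and limma 0 before adjustment, against 8.32% of all genes called. All 4 rows had both control RIP libraries above both Input libraries, as had 29.7% of all genes. Cnot3 RIP lay above Input without overlap in Myh6 and Myh7, as in 30.6% of all genes, and below it in none (26.9% of all genes). Cnot3 RIP lay below control RIP without overlap in Myh7, Myh7b and Mir208b, as in 21.8% of all genes, a count that the choice of the rows may have fixed and from which nothing is read. The call of Myh7 in control RIP against Input was lost without control RIP replicate 1 (limma adjusted p = 0.127), without Input replicate 1 (0.0602) and without Input replicate 2 (0.154).

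Mir208b, in the same transcription unit, had a level of 29.0 and 17.6 scaled CPM in control RIP, 8.62 and 5.64 in Cnot3 RIP, with 7.02 and 4.78 in Input. These came from 503 and 389 reads, 242 and 188 reads, and 76 and 99 reads. The control RIP libraries were above all other libraries, and the Cnot3 RIP and Input libraries overlapped. The log2 difference between Cnot3 RIP and control RIP was −1.66 (SE 0.33). It was 1.92 (SE 0.33, limma adjusted p = 0.0225) between control RIP and Input, and 0.26 (SE 0.33, limma adjusted p = 0.660) between Cnot3 RIP and Input. Its call in control RIP against Input was lost without control RIP replicate 1 (limma adjusted p = 0.204), Input replicate 1 (0.0511) or Input replicate 2 (0.192). Mir208b and Myh7 are rows of the same locus, and the 2 differences are not independent.

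Myh7b, which is expressed at a low level in heart, was 78.9 and 51.4 scaled CPM in control RIP, 39.3 and 20.6 in Cnot3 RIP, with 24.6 and 22.8 in Input. The control RIP libraries were highest, and the Cnot3 RIP libraries lay on both sides of the Input libraries. The log2 difference was −1.15 (SE 0.33) between Cnot3 RIP and control RIP. It was 1.42 (SE 0.33, limma adjusted p = 0.0476) between control RIP and Input, and 0.26 (SE 0.33, limma adjusted p = 0.650) between Cnot3 RIP and Input. The call with Input was lost without any 1 of the 4 libraries compared (limma adjusted p = 0.0980 without control RIP replicate 2, 0.176 without Input replicate 1, 0.284 without Input replicate 2 and 0.290 without control RIP replicate 1). It was also lost with no filter on low values (limma adjusted p = 0.0638) and in edgeR's quasi-likelihood test (adjusted p = 0.0553). Trpc4ap overlaps the end of Myh7b by 37 bases on the opposite strand, so the rows may share reads where strand was not used. Scaled by library size alone, Myh7, Myh7b and Mir208b passed the threshold in Cnot3 RIP against Input too, with log2 differences of 1.61, 1.335 and 1.29 (limma adjusted p = 0.00125, 0.00729 and 0.00977), where the median of all genes was 1.02.

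**Figure D2:**
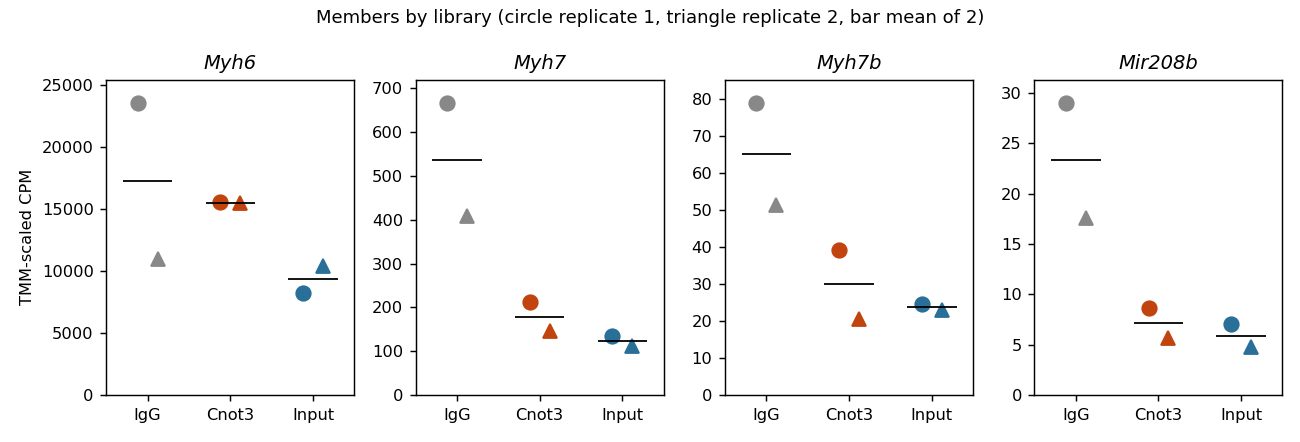
TMM-scaled CPM of Myh6, Myh7, Myh7b and Mir208b in each of the 6 libraries, with the mean of the 2 libraries of a group as a bar. Myh7, Myh7b and Mir208b are highest in both control RIP libraries, and the Myh6 libraries of Cnot3 RIP, 15528 and 15490, lie between those of control RIP.

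The ratio of Myh7 to Myh6 in a library cancels its scaling. Myh7 reads per 100 Myh6 reads were 2.83 and 3.72 in control RIP, 1.36 and 0.940 in Cnot3 RIP, with 1.63 and 1.065 in Input. The Myh7 share of Myh6 plus Myh7 reads had exact Clopper-Pearson 95% intervals of 2.71% to 2.80% and 3.51% to 3.66% in control RIP, 1.31% to 1.38% and 0.905% to 0.957% in Cnot3 RIP, and 1.52% to 1.69% and 1.01% to 1.097% in Input. These intervals cover counting error only, since reads are not independent molecules. The 2 libraries of each group did not overlap within counting error, so the spread between libraries exceeded it. On the log2 scale the mean ratio was −4.95 ± 0.28 (SD, n = 2) in control RIP, −6.46 ± 0.38 in Cnot3 RIP and −6.25 ± 0.43 in Input. The ratio in Cnot3 RIP was 0.349 times that in control RIP and 0.859 times that in Input, and the Cnot3 RIP and Input libraries overlapped. The control RIP ratio was 2.46 times that of Input, and no library of these groups overlapped. With 2 libraries a group an exact permutation test cannot go below p = 0.333, so no test was made on the ratio.

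Mir208b varied less against Myh7 than Myh7 against Myh6. It had 4.35 and 4.32 reads per 100 Myh7 reads in control RIP, 4.07 and 3.87 in Cnot3 RIP, with 5.24 and 4.32 in Input. The differences of the log2 ratio were −0.13 between Cnot3 RIP and control RIP, −0.26 between Cnot3 RIP and Input and −0.13 between control RIP and Input, beside differences of up to 2.096 in the rows themselves. Counting intervals of the Mir208b share overlapped among all 6 libraries, the widest being 3.95% to 6.20% in Input replicate 1. Per base of feature, Mir208b had 3.13 to 4.24 times the read density of the Myh7 transcript. A hairpin of 77 bases also collects reads that only overlap it, and the read length is unknown here, so this density is not a level.

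Mir208a, in an intron of Myh6, was scarce. It had 76 and 82 reads in control RIP, 65 and 35 in Cnot3 RIP, with 17 and 31 in Input, which is 0.186 and 0.339 reads per 1000 Myh6 reads, 0.149 and 0.0677, and 0.191 and 0.144. Its density per base was 0.00499 to 0.0249 times that of Myh6. Its level was 4.38 and 3.71 scaled CPM in control RIP, 2.31 and 1.05 in Cnot3 RIP, with 1.57 and 1.497 in Input. The log2 difference of Mir208a was −1.23 (SE 0.35) between Cnot3 RIP and control RIP, where Myh6 had −0.05. It was 1.26 (SE 0.35, limma adjusted p = 0.0761) between control RIP and Input, where Myh6 had 0.80. The second passed the threshold with only those 2 groups fitted (limma adjusted p = 0.0293), without either Cnot3 RIP library (0.0304 and 0.0336) and under library-size scaling (0.00871). Under that scaling the median of all genes was 0.70. The difference between row and host was not tested. Mir499 had 4 and 4 reads in control RIP, 0 and 1 in Cnot3 RIP, with 0 and 0 in Input, at or near the 3 reads that a count of 0 allows. It failed the filter.

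**Figure D3:**
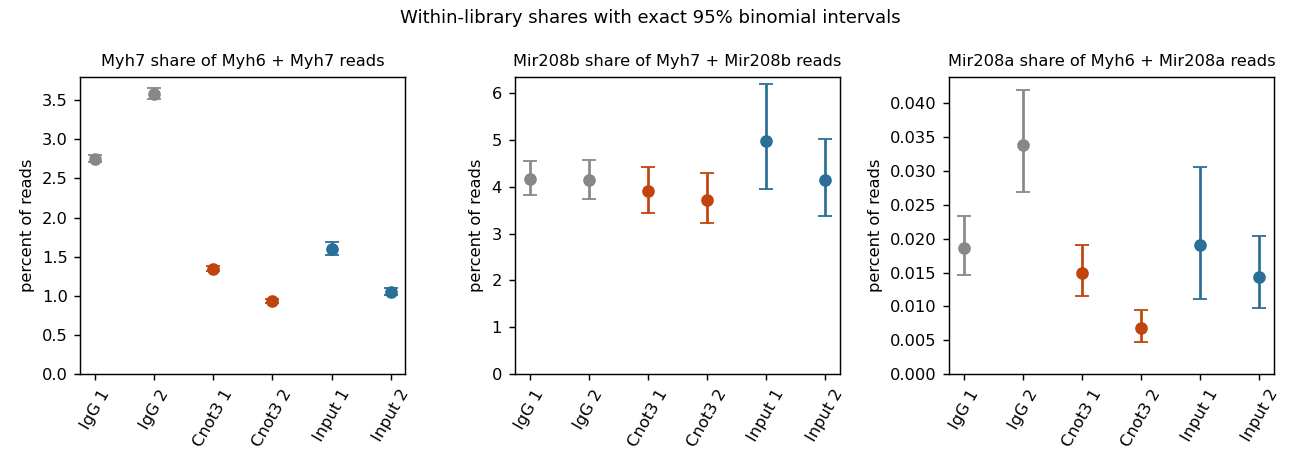
Share of reads, in percent, that Myh7 takes of Myh6 plus Myh7, Mir208b of Myh7 plus Mir208b, and Mir208a of Myh6 plus Mir208a, in each library with exact 95% binomial intervals. The Myh7 share of the control RIP libraries lies above 2.71% and that of all other libraries below 1.69%, while the Mir208b intervals overlap.

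Mhrt, the antisense RNA of Myh7, was 63.2 and 41.2 scaled CPM in control RIP, 34.4 and 12.6 in Cnot3 RIP, with 20.8 and 16.1 in Input. Its log2 differences were −1.28 (SE 0.42) between Cnot3 RIP and control RIP, 0.18 (SE 0.42, limma adjusted p = 0.821) between Cnot3 RIP and Input, and 1.47 (SE 0.42, limma adjusted p = 0.0829) between control RIP and Input. The last passed the threshold with only those 2 groups fitted (limma adjusted p = 0.0176), without either Cnot3 RIP library (0.0187 and 0.0188), with a replicate block (0.0409), under library-size scaling (0.00621) and in DESeq2 (adjusted p = 0.0105). Under library-size scaling the median of all genes was 0.70 there. Reads of Mhrt per 100 Myh7 reads were 9.49 and 10.1 in control RIP, 16.3 and 8.63 in Cnot3 RIP, with 15.5 and 14.6 in Input, so the Cnot3 RIP libraries spanned the others. Genes next to the 2 loci, 6 of 9 of which were tested, had log2 differences of −0.997 to 0.03, −0.51 to 0.09 and −0.33 to 0.998 in Cnot3 RIP against control RIP, Cnot3 RIP against Input and control RIP against Input, and limma called 0 in each (2, 0 and 1 before adjustment, 0 by edgeR or DESeq2). These counts stand beside backgrounds of 1.81% (0.277% lower), 8.32% and 4.07% of all genes.

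**Figure D4:**
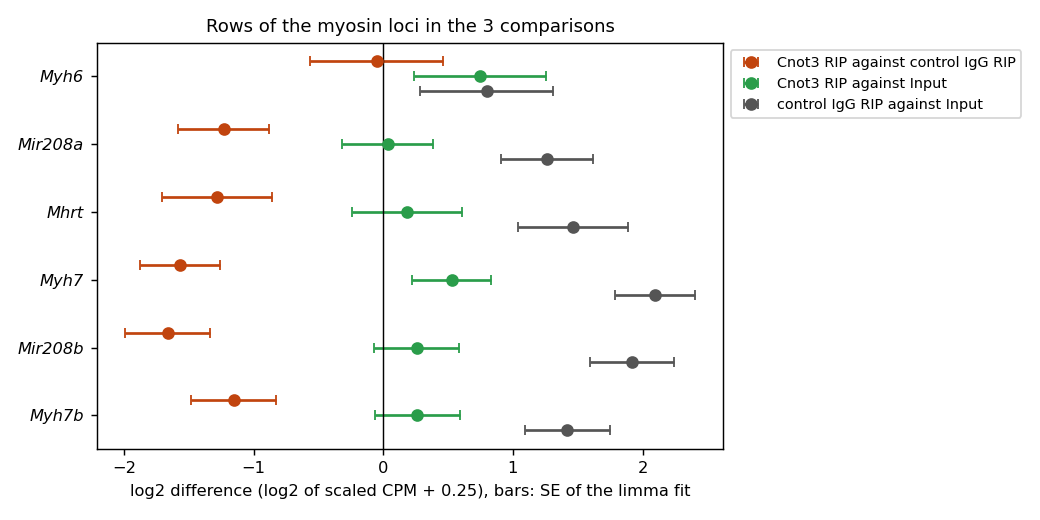
Log2 differences with the SE of the limma fit for rows of the myosin loci in the 3 comparisons. Myh7 and Mir208b differ from control RIP by −1.57 and −1.66, and Myh6 by −0.05.

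Rows of other intronic hairpins were set beside their hosts. Of 24 tested rows whose symbol is Mir with a number, 8 lay in a tested protein-coding gene on the same strand. Of these, 4 lay clear of its exons: Mir208b, Mir208a, Mir5709 in Ptprm and Mir490 in Chrm2. In Cnot3 RIP against control RIP the log2 differences of row and host were −1.07 and −0.54 for Mir5709 in Ptprm, and −1.46 and 0.23 for Mir490 in Chrm2. In control RIP against Input they were 1.55 and 0.97 for Mir5709 in Ptprm, and 1.41 and −0.06 for Mir490 in Chrm2. In Cnot3 RIP against Input they were 0.48 and 0.43 for Mir5709 in Ptprm, and −0.06 and 0.17 for Mir490 in Chrm2. Mir208b and Myh7 had −1.66 and −1.57, 1.92 and 2.096, and 0.26 and 0.53 in the same order. Row and host lay nearest each other in Mir208b and Myh7 in the first 2 of these comparisons, and in Mir5709 and Ptprm in Cnot3 RIP against Input. Myh7 and Mir208b were picked with the first comparison known, and the others share libraries with it. The choice may have fixed this order among 4 pairs, and nothing is read from it. The 24 rows also include Mir17hg, Mir22hg, Mir99ahg and Mir143hg, named for host genes of microRNAs and not for a hairpin. Medians of this mixed set were −0.96, −0.03 and 0.72 in Cnot3 RIP against control RIP, Cnot3 RIP against Input and control RIP against Input. They stand against −0.00, 0.06 and 0.01 for all genes, and are not medians of hairpin rows alone. In Cnot3 RIP against control RIP, 3 of the 24 rows lay above 0. In control RIP against Input limma called 3 of the 24 higher, beside 2.58% of all genes. Besides Mir208b these were Mir30c-2 (2.06, limma adjusted p = 0.0383), which averaged 0.07 scaled CPM in Input, and Mir99ahg (2.58, 0.0492). It called 1 lower, Mir6516 (−1.57, 0.0399), beside 1.49% of all genes.

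Of 11 other class II myosin heavy chains, 6 were tested and limma called 0 in each comparison (0, 2 and 2 before adjustment, 0 by edgeR or DESeq2), with medians of −0.14, 0.50 and 0.59 in Cnot3 RIP against control RIP, Cnot3 RIP against Input and control RIP against Input. All genes had medians of −0.00, 0.06 and 0.01, and limma called 1.81%, 8.32% and 4.07% of them. Myh9, a nonmuscle chain, was 147 ± 3.33 (SD, n = 2) scaled CPM in control RIP, 144 ± 46.5 in Cnot3 RIP and 103 ± 11.6 in Input. The skeletal muscle chain Myh2 stood at 0.472 to 0.923 scaled CPM by group mean, and Myh4 had 1 to 5 reads in the RIP libraries and 0 in both Input libraries. Among 12 tested light chain and kinase genes, 3 were lower in Cnot3 RIP than in Input, and limma called 0 in Cnot3 RIP against control RIP (0 before adjustment) and 0 in control RIP against Input (4 before adjustment, 0 by edgeR, 2 by DESeq2). The 3 were the ventricular light chain Myl2 (log2 −1.29, limma adjusted p = 0.0322), Myl3 (−1.16, 0.0350) and Myl1 (−1.36, 0.0364); Myh6 had 0.75 there. Of all genes, 2.47% were lower there, while 1.81% were called in Cnot3 RIP against control RIP and 4.07% in control RIP against Input. The calls of Myl2 and Myl3 were lost without Cnot3 RIP replicate 2, Input replicate 1 or Input replicate 2 (limma adjusted p = 0.126 to 0.281), with no filter (0.104 to 0.106), with a replicate block (0.0695 and 0.0783) and when scaled by library size (0.520 and 0.783). Myl1 lost its call in every run without a library except that without Cnot3 RIP replicate 1 (limma adjusted p = 0.0587 to 0.181), and also when only the 2 groups were fitted (0.0569), with no filter (0.0820) and when scaled by library size (0.366). Of 13 thick filament genes, limma called 0 in each comparison (1, 3 and 2 before adjustment, 0 by edgeR, and 0, 2 and 1 by DESeq2). These counts stand beside 1.81%, 8.32% and 4.07% of all genes called. Titin (Ttn) and Mybpc3 had log2 differences of 1.42 (limma adjusted p = 0.200) and 0.54 (0.352) between control RIP and Input. Both passed under library-size scaling (limma adjusted p = 0.00231 and 0.00407), and Ttn in DESeq2 (adjusted p = 0.000398). Library-size scaling there gave all genes a median of 0.70, with 4383 called higher and 10 lower. In the thin filament list of 14 tested, limma called 1, Acta1, lower in Cnot3 RIP than in Input (−1.03, limma adjusted p = 0.0255) and in control RIP than in Input (−1.02, 0.0369). Before adjustment 7 passed in each, edgeR called 1 in each, and DESeq2 called 5 and 2, beside 2.47% and 1.49% of all genes called lower by limma. Its calls were lost without any 1 of the Input libraries, without Cnot3 RIP replicate 2 in the first comparison and without either control RIP library in the second (limma adjusted p = 0.0898 to 0.297). The library-size scaling turned the first to 0.05 and ended the second (limma adjusted p = 0.387), as did a replicate block (0.0736).

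Among 37 factors known to act on the Myh6 and Myh7 genes, all tested, 3 were higher than in control RIP, 7 were higher than in Input and limma called 0 between control RIP and Input (5 before adjustment, 0 by edgeR, 1 by DESeq2). These shares of 8.11% and 18.9% stand beside 1.54% and 5.86% of all genes called higher, and the 0 beside 4.07% of all genes called. The medians were 0.53, 0.40 and −0.01 against −0.00, 0.06 and 0.01 for all genes. Because the list was chosen with earlier results of these data known, its shares and medians are no independent support. Sox6, a repressor of slow muscle genes, was 37.9 and 37.4 scaled CPM in control RIP, 87.6 and 121 in Cnot3 RIP, with 21.3 and 15.6 in Input. The 2 Cnot3 RIP libraries were above all others. Its log2 difference was 1.45 (SE 0.25, limma adjusted p = 0.0319) between Cnot3 RIP and control RIP and 2.48 (SE 0.25, limma adjusted p = 0.00388) between Cnot3 RIP and Input. It was 1.03 (limma adjusted p = 0.0543) between control RIP and Input, which passed with only those groups fitted (0.0293), without either Cnot3 RIP library (0.0303 and 0.0304), under library-size scaling (0.00328) and in DESeq2 (adjusted p = 0.0166). Library-size scaling gave all genes a median of 0.70 in control RIP against Input. Sp1, a general activator of transcription, and Vgll4, a cofactor of TEAD factors, were the other genes higher than in control RIP, at log2 1.53 (limma adjusted p = 0.0348) and 1.79 (0.0400). Against Input, Vgll4 (2.04, limma adjusted p = 0.0150), the calcium-responsive factor Nfatc2 (1.26, 0.0158) and Sp1 (1.36, 0.0237) were also higher. The calls of Sox6, Sp1 and Vgll4 against control RIP were lost without control RIP replicate 1 (limma adjusted p = 0.271, 0.314 and 0.384), without Cnot3 RIP replicate 2 (0.160, 0.144 and 0.244), without Input replicate 1 or 2 (0.0511 to 0.0613), and with no filter or with only the 2 groups fitted (0.0553 to 0.0814). Sox6 and Sp1 also lost theirs without control RIP replicate 2 (0.0953 and 0.0762). Against Input, Sox6 lost its call without Input replicate 2 alone (0.0864), and Vgll4, Nfatc2 and Sp1 without Cnot3 RIP replicate 2, Input replicate 1 or Input replicate 2 (0.0595 to 0.186).

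Reported targets of miR-208 and miR-499 were 7 genes, of which 6 were tested. Sox6, given above, was called in both comparisons of Cnot3 RIP, and Sp3 (log2 0.89, limma adjusted p = 0.0497) was called in Cnot3 RIP against Input. Higher calls made up 16.7% of the 6 against control RIP and 33.3% against Input, beside 1.54% and 5.86% of all genes. In control RIP against Input limma called 0 of the 6 (2 before adjustment, 0 by edgeR, 1 by DESeq2), beside 4.07% of all genes. Sp3 lost its call under all but a few settings (limma adjusted p = 0.0502 to 0.323 where it did). The medians were 0.60, 0.42 and −0.13 in Cnot3 RIP against control RIP, Cnot3 RIP against Input and control RIP against Input. Those of all genes were −0.00, 0.06 and 0.01. Med13, a Mediator subunit, and Purb, a repressor of muscle genes, had values of 0.58 (limma adjusted p = 0.254) and 0.62 (limma adjusted p = 0.214) between Cnot3 RIP and control RIP. The list was drawn up with earlier results of these data known and is no independent evidence of direction.

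**Figure D5:**
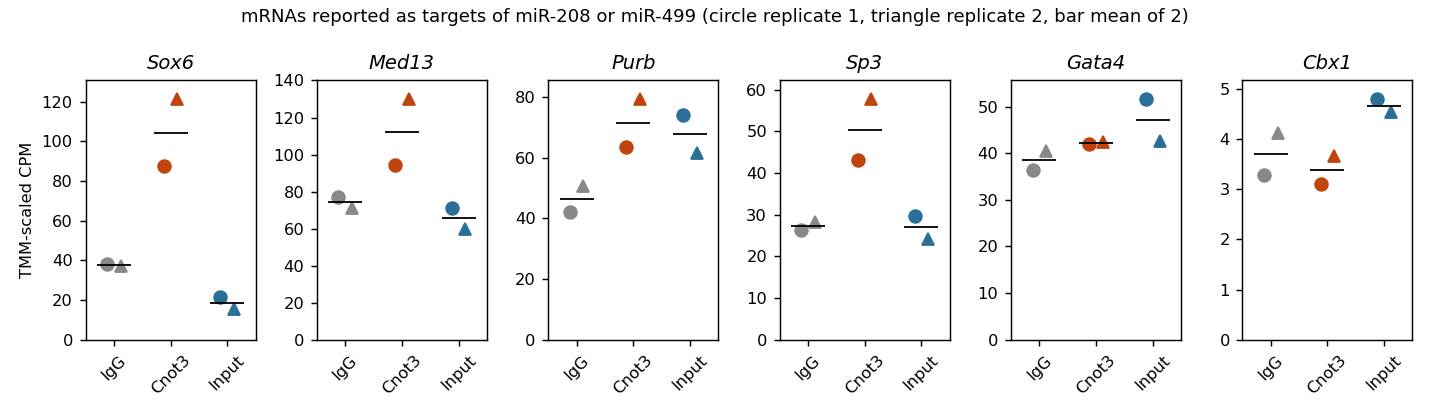
TMM-scaled CPM of 6 mRNAs reported as targets of miR-208 or miR-499 in each library, with the mean of the 2 libraries of a group as a bar. Sox6 is highest in both Cnot3 RIP libraries, 87.6 and 121, while the group means of Gata4 are 38.5 to 47.1.

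Genes with the pattern most like Myh7 over the 6 libraries were sought among 4720 genes with a mean of at least 10 scaled CPM. By Pearson r of log2 scaled CPM they were Pard3 (r = 0.996), Itpr2 (0.994), Phka2 (0.994), Dysf (0.994), Atrnl1 (0.990) and Atp8a1 (0.989), beside 0.990 for Mir208b, 0.971 for Myh7b and 0.645 for Myh6. Pearson r does not compare sizes. Between control RIP and Input these 6 genes had log2 differences of 0.547 to 1.295, where Myh7 had 2.096. For Myh6 the nearest genes were Smarcc1 (0.990), Epb4.1 (0.984), Phrf1 (0.979), Lrpprc (0.976), Mybpc3 (0.972) and Ap1b1 (0.972). All 6 values rest on the same libraries and 3 groups, and no p is given. The lists changed with scaling and with single libraries. By library size alone, 0 of the 6 were again among the nearest 6 for either gene. With 1 library left out, 0 to 4 of the 6 were so for Myh7, with 0 without Cnot3 RIP replicate 2, and 1 to 3 for Myh6.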

How the data were processed

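Heart lysate RNA was sequenced as Input, Cnot3 RIP and control IgG RIP, 2 libraries a group. For each gene symbol the authors deposited CPM, and each column sums to that unit's fixed total. Per the submitters' processing notes, TopHat2 2.1.0, Bowtie2 2.2.5, CASAVA 1.8, FastQC and edgeR were used, with mm10. Counter, annotation, strand setting and read length: not given in the sources used here. The smallest step between values gave whole reads for 100% of values above 0, within 0.01 read (largest deviation 0.00109).

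TMM factors came from those reads (edgeR 4.0.16). In R 4.3.3, limma 3.58.1 with a trended empirical Bayes prior modelled 3 group means of log2 scaled CPM with 0.25 added. Genes kept by filterByExpr at a minimum count of 10 numbered 13010, and calls are Benjamini-Hochberg adjusted p under 0.05. Fold changes are on the log2 of scaled CPM plus 0.25 scale and understate those of low genes. On the recovered reads, edgeR's quasi-likelihood test called 296 genes between Cnot3 RIP and control IgG RIP, and DESeq2 1.42.0 was a further alternative. The limma step was tested on simulated data. There all genes had the same spread beyond counting, and the groups shared a base profile apart from genes changed on purpose. The libraries here differ from that in their Rn45s shares, so the simulation does not show how the fit behaves on them. Members and lists were chosen with earlier results of these data known. Named were the members, other rows of their loci, list genes with calls or the highest levels, and the 6 genes nearest in pattern. Alternatives changed scaling, pseudocount, filter, test, groups fitted and replicates.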

Additional observations from a re-analysis of the deposited data

How the results depend on the processing

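With each library left out in turn, the number of genes called by limma ran from 0 to 1271 in Cnot3 RIP against control IgG RIP (236 with all), from 3 to 1958 in Cnot3 RIP against Input (1083), and from 23 to 862 in control IgG RIP against Input (530). The count of 0 came without control IgG RIP replicate 1, where 760 genes were higher and 356 lower before adjustment (p under 0.05) and edgeR's quasi-likelihood test called 0 higher and 0 lower. Library-size scaling gave 625, 7759 and 4393 calls, with 592 higher and 33 lower, 7752 and 7, and 4383 and 10, against 200 and 36, 762 and 321, and 336 and 194. No filter gave 27 and 560 in the comparisons of Cnot3 RIP, fitting only the 2 groups 134, 701 and 906, DESeq2 720 in Cnot3 RIP against control IgG RIP, and edgeR 339 in control IgG RIP against Input. Deviations of same-numbered libraries correlated at −0.317 for control IgG RIP and Cnot3 RIP, −0.327 for control IgG RIP and Input and 0.339 for Cnot3 RIP and Input. With 2 libraries a group, the sign of a group's deviation depends only on which library is numbered 1. These signs therefore cannot decide whether the numbers pair the groups. The labels are silent on it, and it was not tested. A replicate block gave 385, 809 and 325 calls. Crossing the replicate block (control IgG RIP numbers exchanged), chosen after seeing the data, gave 1065, 2498 and 1870. In Cnot3 RIP against Input the log2 difference turned below 0 without Cnot3 RIP replicate 1 for Myh7b, Mir208b, Mir208a and Mhrt, and for Mir208b also without Input replicate 2 (−0.009). With each library left out in turn it ran from −0.195 to 0.724 for Myh7b, −0.039 to 0.553 for Mir208b, −0.457 to 0.525 for Mir208a, −0.535 to 0.903 for Mhrt and −0.299 to 0.188 for Mir490. Under library-size scaling Chrm2 turned to 0.701 in control IgG RIP against Input and, in Cnot3 RIP against Input, Acta1 to 0.049, Lyz2 to 0.104 and Mir490 to 0.224. The difference in the Mir208b to Myh7 ratio between Cnot3 RIP and control IgG RIP was −0.000313 with a pseudocount of 1. The cause of these changes was not tested.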
